A study of Mus musculus with 45 samples.

Results

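The genes described here are 10 members of the NRF2 antioxidant pathway, taken by name from a table of 22080 genes, in which each had 1 row. They are Nfe2l2, Keap1, Gclc, Gclm, Slc7a11, Gsr, Txnrd1, Srxn1, Nqo1 and Hmox1, and all 10 of the names sought were found. The rule uses names alone and no measured value, although the list was drawn up with earlier results of these data known. Their signals were read on 45 microarrays of 3 tissues (liver, kidney and brain) and 5 diets, which gives 15 groups of 3 arrays.

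NRF2, encoded by Nfe2l2, is a transcription factor that cells hold at a low level through KEAP1, an adaptor that marks it for degradation. Electrophiles and oxidants modify KEAP1, NRF2 then accumulates, pairs with a small MAF protein and binds antioxidant response elements near genes for glutathione synthesis, thioredoxin recycling, quinone reduction and heme breakdown. In liver and kidney, organs that handle many xenobiotics, this pathway is known as a main line of defense. Because NRF2 is controlled largely through protein stability, its own transcript and that of Keap1 are not measures of its activity.

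The samples came from male C57BL/6 mice, 7 weeks old when obtained, with 8 mice per diet. Tissues were taken at day 43 after a period without food. Control mice ate the AIN-93 diet, and the HCD group ate it with 0.5% cholesterol. The 3 other groups ate that high-cholesterol diet with an addition, which was the Gl-1 extract at 1% (HCD+Gl-1), the Gl-2 extract at 1% (HCD+Gl-2) or simvastatin at 0.03% by weight (HCD+Sim). Gl-1 and Gl-2 are extracts of the mushroom Ganoderma lucidum, grown without (Gl-1) or with (Gl-2) acetylsalicylic acid in the substrate, and simvastatin is a drug that blocks HMG-CoA reductase. By the study's methods mice were assigned to the groups at random, and allocation was not blinded. By the same methods RNA of 4 mice went into pool A and that of the 4 others into pool B, while pool C combines both. By that account a group of 3 arrays rests on 2 separate pools, and the p-values and intervals treat it as 3. Some C arrays read outside the range of A and B, as given below.

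Of the 10 members, 7 have 1 or more promoters in RefSeq's table for GRCm38.p6, which holds 250 bases before and 50 bases after each start, and Gclc, Hmox1 and Gsr have none there. The antioxidant response element has the core TGACNNNGC, and this core was searched for on either strand. It was found in 4 of the 9 promoters of these members, each of a different member, and in 12.4% of all 32851 promoters of this length. The windows with the core are shown 5′ to 3′ on the strand of the gene, since the core is the sequence that NRF2 and a small MAF protein are known to recognize. Capitals mark the 9 bases of the core, which read as its reverse complement in the promoters of Gclm, Txnrd1 and Srxn1.
Nfe2l2, minus strand, chr2:75704850-75704913: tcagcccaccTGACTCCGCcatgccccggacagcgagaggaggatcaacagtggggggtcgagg
Gclm, plus strand, chr3:122245378-122245476: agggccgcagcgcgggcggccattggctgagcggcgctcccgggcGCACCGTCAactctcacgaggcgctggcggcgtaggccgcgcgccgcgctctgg
Txnrd1, plus strand, the second of 3 starts, chr10:82859069-82859167: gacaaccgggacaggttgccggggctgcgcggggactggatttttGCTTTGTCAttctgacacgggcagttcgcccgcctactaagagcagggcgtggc
Srxn1, plus strand, chr2:152105507-152105573: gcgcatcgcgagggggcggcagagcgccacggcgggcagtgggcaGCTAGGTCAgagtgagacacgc

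The core begins 240 bases before the start of Nfe2l2, 134 before that of Gclm, 92 before the second start of Txnrd1 and at position 29 after the start of Srxn1. These letters were not in the windows of Keap1, Nqo1, Slc7a11 and the other starts of Txnrd1. The matches are a description of the sequence, and no binding was measured.

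Values are log2 signals after the authors' normalization, so a difference of 1 is a doubling. A gene is called differentially expressed (DE) where its log2 fold change was beyond 0.7 in either direction with an adjusted p no higher than 0.05, and it passed the test, or rose or fell, at that adjusted p alone. Each gene is read by its own probe set, so levels are compared between tissues and diets for the same gene, never between genes. In whole tissue, fewer cells of a type and less RNA per cell cannot be told apart.

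Some facts of the whole data set bear on what follows. The mean signal of 10 hepatocyte genes was 13.13 to 13.26 over the liver arrays against at most 9.14 in kidney and 7.42 in brain, that of 10 kidney genes was 11.70 to 11.83 in kidney against at most 6.44 elsewhere, and that of 10 brain genes 11.32 to 11.52 in brain against at most 6.46 elsewhere, so the tissue labels and these markers point to the same tissues. Arrays A and B of the HCD+Sim liver stood apart, with a mean of 12 pancreas acinar genes at 7.48 and 8.01, against 6.03 to 6.31 on the 13 other liver arrays. The same 2 arrays read 7.57 and 7.92 for the mean of 12 skeletal muscle genes, against 6.26 to 7.08 on the others. Array C of that group, by the methods a mix of A and B, read 6.31 and 6.55 for these means, below both. Arrays A and C of the HCD+Gl-2 liver and all 3 of the HCD+Gl-2 kidney were high in a list of 17 immediate early and heat shock genes. In that liver group array C, at a mean of 9.08, lay above both A (8.68) and B (7.42). Why these C arrays read outside the range of A and B was not tested.

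The largest differences among the members were between tissues. On the control diet 8 of the 10 members were DE between kidney and brain, 7 between liver and brain and 2 between liver and kidney. Over all genes 30%, 32.7% and 16.8% were DE in these comparisons, and 59.1%, 70% and 48.4% passed the test. Among the DE members all were higher in liver and kidney than in brain except Slc7a11.

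Nfe2l2, the transcription factor itself, was at 9.72 ± 0.02 (SD, n = 3 arrays) in liver, 9.83 ± 0.04 in kidney and 7.63 ± 0.12 in brain on the control diet. Its signal was 4.25-fold higher in liver than in brain (log2 difference 2.09, SE 0.09, adjusted p = 2.34e-23) and 4.59-fold higher in kidney than in brain (SE of the log2 difference 0.09, adjusted p = 4.94e-24). Liver against kidney did not pass the test (log2 difference -0.11, 95% interval -0.29 to 0.06, adjusted p = 0.294). The kidney arrays (9.87, 9.78 and 9.84) all read above the liver arrays (9.74, 9.70 and 9.72). Over all 15 arrays of a tissue, the liver arrays ran from 9.47 to 9.95, the kidney arrays from 9.78 to 9.99 and the brain arrays from 7.38 to 7.84, so brain lay apart from the others on every diet.

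Keap1, the repressor, was highest in liver at 8.68 ± 0.01, with kidney at 8.31 ± 0.07 and brain at 8.33 ± 0.06. The liver passed the test against kidney (log2 difference 0.37, adjusted p = 1.15e-05) and against brain (0.35, adjusted p = 1.72e-05), both below the fold threshold. Kidney and brain differed by -0.02 (95% interval -0.16 to 0.11). On the log2 scale Nfe2l2 and Keap1 therefore had different orders across tissues, with brain apart for Nfe2l2 and liver apart for Keap1.

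Gclc and Gclm encode the catalytic and modifier subunits of glutamate-cysteine ligase, which carries out the first and limiting step of glutathione synthesis. Gclc was at 10.66 ± 0.03 in liver, 10.84 ± 0.07 in kidney and 8.46 ± 0.05 in brain on the control diet. Liver exceeded brain 4.60-fold and kidney exceeded brain 5.20-fold, while liver and kidney missed the threshold (log2 difference -0.18, adjusted p = 0.0545). Gclm followed the same order at 10.73 ± 0.04, 11.32 ± 0.04 and 8.98 ± 0.33, and its kidney signal passed the test against liver (liver minus kidney -0.60, adjusted p = 1.03e-06).

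Slc7a11 encodes the transport subunit of the cystine and glutamate exchanger, which brings in cystine for glutathione. Unlike the ligase, it was highest in brain. On the control diet the brain arrays read 7.91, 7.72 and 7.93, the liver arrays 4.71, 4.91 and 5.43, and the kidney arrays 4.70, 4.79 and 4.83. The brain signal was 7.14-fold higher than the liver's (adjusted p = 7e-20) and 8.45-fold higher than the kidney's (adjusted p = 5.51e-21). No detection calls were analysed here, so whether its liver and kidney signals lay above background was not tested.

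Gsr, glutathione reductase, had 3 separate levels at 10.53 ± 0.07 in kidney, 9.59 ± 0.03 in liver and 8.04 ± 0.03 in brain. Each of its tissue comparisons was DE, with kidney 1.92-fold above liver (liver minus kidney -0.94, adjusted p = 4.78e-14), liver 2.92-fold above brain and kidney 5.61-fold above brain. Txnrd1, the cytosolic thioredoxin reductase, was alike in liver (9.19 ± 0.07) and kidney (9.22 ± 0.03), with a difference of -0.03 (95% interval -0.17 to 0.10), and lower in brain (8.03 ± 0.08). Srxn1, sulfiredoxin, which repairs overoxidized peroxiredoxins, read 8.42 ± 0.10 in liver, 8.59 ± 0.06 in kidney and 8.68 ± 0.05 in brain, and only liver against brain passed the test (log2 difference -0.26, adjusted p = 0.00202).

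Nqo1, the NAD(P)H quinone reductase often used as a readout of NRF2, was highest in kidney. On the control diet the kidney arrays read 8.44, 8.39 and 8.67, the liver arrays 6.08, 6.32 and 5.98, and the brain arrays 6.02, 5.94 and 5.53. Kidney exceeded liver 5.18-fold (liver minus kidney -2.37, SE 0.12, adjusted p = 2.58e-20) and brain 6.37-fold (adjusted p = 2.72e-22). Liver against brain was 0.30 (adjusted p = 0.0248) and went to 0.15 (adjusted p = 0.279) without array C of the brain controls and to 0.20 (adjusted p = 0.167) without array B of the liver controls. Hmox1, heme oxygenase, was at 8.29 ± 0.22 in liver and 8.19 ± 0.09 in kidney, which did not differ beyond their spread (log2 difference 0.10, 95% interval -0.15 to 0.35), and at 6.59 ± 0.22 in brain, 3.25-fold below liver and 3.03-fold below kidney.

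**Figure D1:**
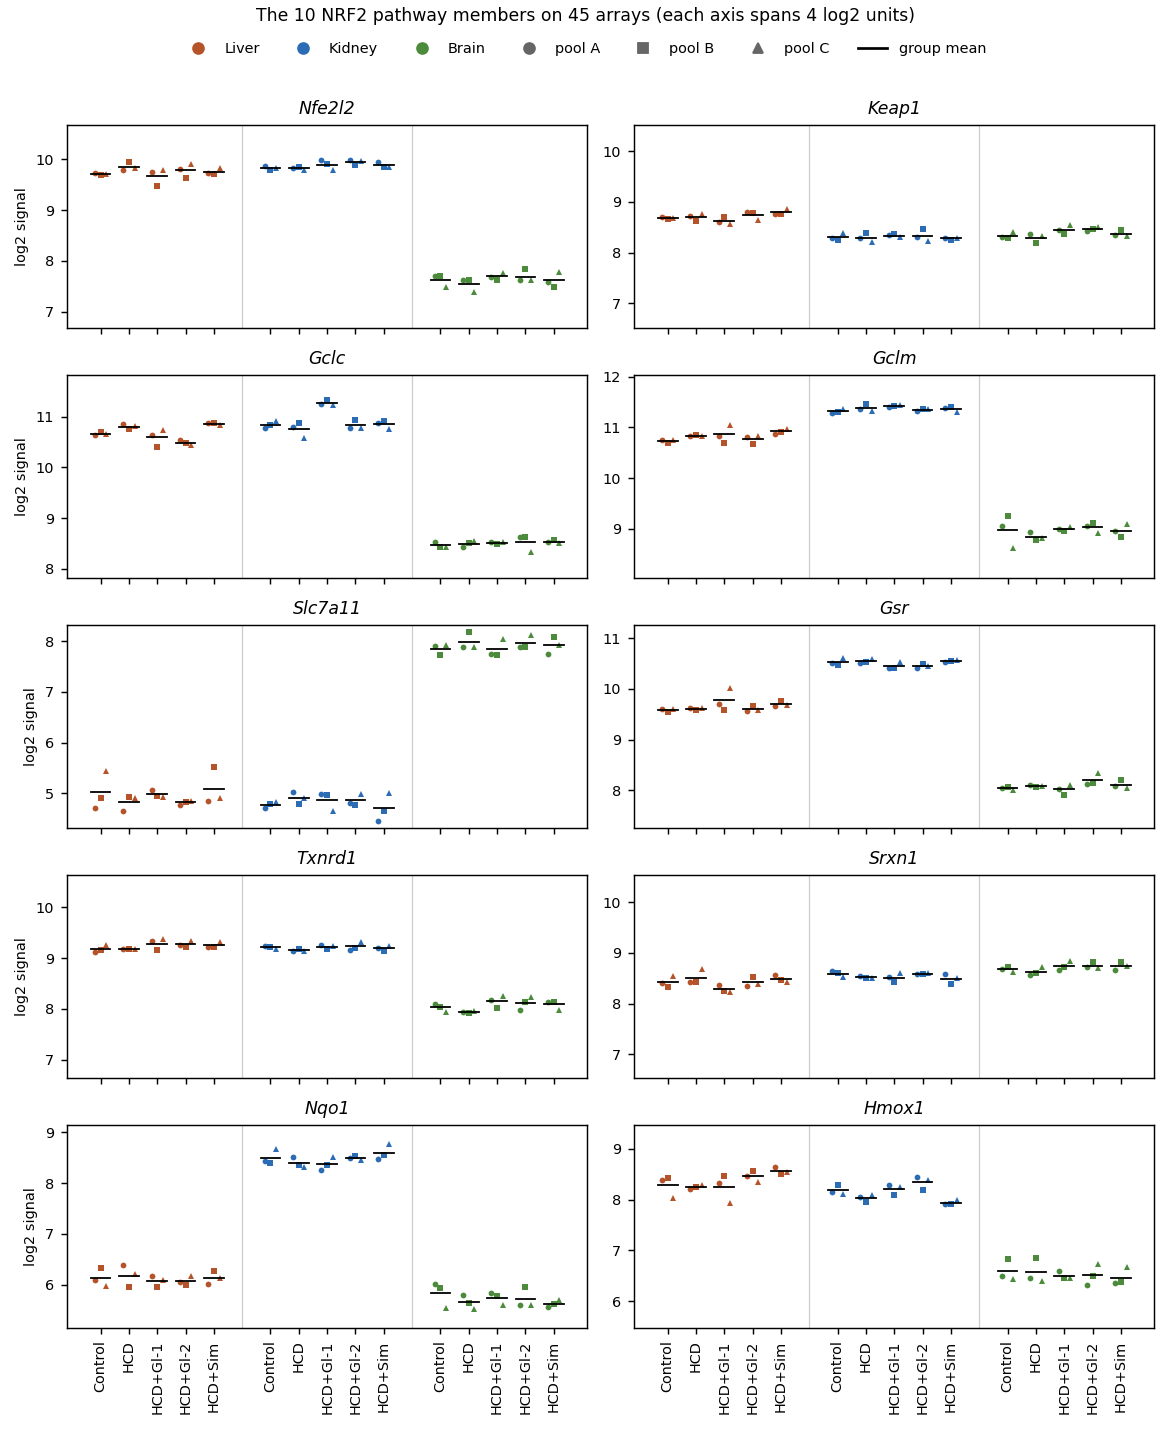
Log2 signal of the 10 members (vertical axes of equal height) on every array of the 15 tissue and diet groups (horizontal axes); symbols are pools, colours are tissues and black lines are group means. Brain lies apart from the other tissues for Nfe2l2, Gclc, Gclm, Gsr, Hmox1, Txnrd1 and Slc7a11, and within a tissue the group means of a member span at most 0.52.

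The tissue differences that were DE on the control diet kept their direction on each diet. The kidney minus brain difference of Nqo1 lay between 2.64 and 2.97 over the 5 diets, that of Gsr between 2.25 and 2.49, and that of Slc7a11 between -3.21 and -2.97, with the arrays of the tissues apart on all 5. Between liver and kidney some smaller differences changed sign over the diets. That of Gclc went from 0.05 on HCD to -0.68 on HCD+Gl-1, and that of Nfe2l2 from 0.03 to -0.23 on the same diets. That of Txnrd1 went from -0.03 on Control to 0.07 on HCD+Sim and that of Slc7a11 from -0.09 on HCD to 0.39 on HCD+Sim. For Txnrd1 and Slc7a11 the liver and kidney arrays overlapped on every diet. The HCD+Sim liver arrays of Slc7a11 read 4.85, 5.52 and 4.91. In the tests of liver minus kidney responses given below, Gclc with Gl-1 passed. Nfe2l2 with Gl-1 (adjusted p = 0.452), Slc7a11 with simvastatin (adjusted p = 0.458) and Txnrd1 in every such test did not.

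**Figure D2:**
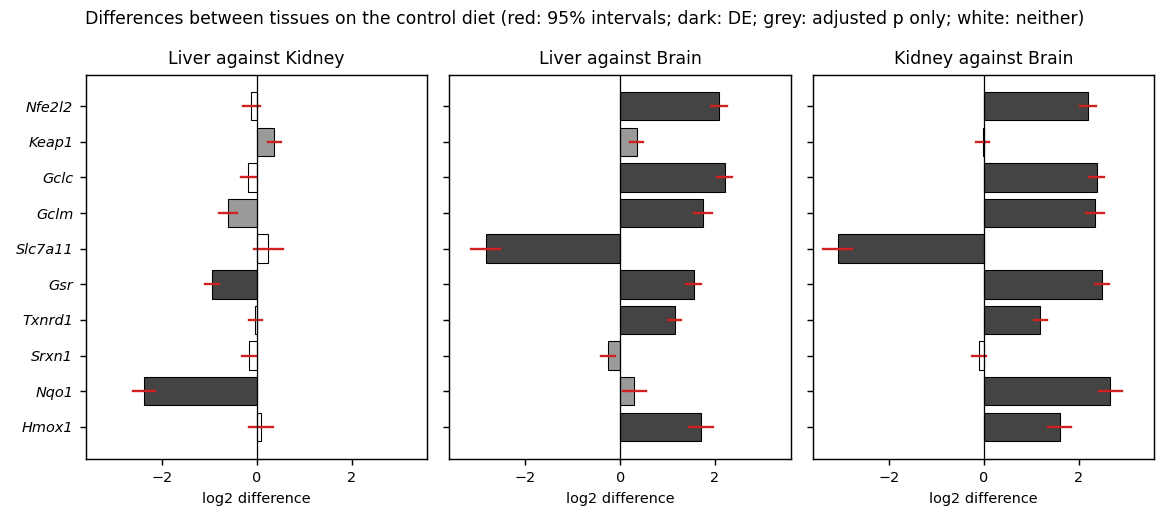
Log2 difference of each member between tissues on the control diet (bars, n = 3 arrays per tissue), with 95% intervals in red; dark bars are DE and grey bars passed the adjusted p alone. Slc7a11 is the member that runs far to the brain side, and Nqo1 separates kidney from both other tissues.

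The other lists of the pathway, whose genes were chosen with earlier results of these data known, stood as follows on the control diet. Of 29 further NRF2 targets, 18 were DE higher in kidney than in brain and 1 lower, and 20 higher in liver than in brain and none lower, with median log2 differences of 0.85 and 1.47 beside 0.08 and 0.14 for all genes. Abcc2, an export pump for conjugates, was 5.72 higher in kidney than in brain and 6.16 higher in liver than in brain, and Gsta3, a glutathione transferase, was 5.74 higher in liver than in brain. Among 21 genes of the glutathione cycle, 15 were DE higher in kidney than in brain and none lower, led by Ggt1 (log2 difference 5.40), the enzyme that breaks down extracellular glutathione, and Gpx3 (4.95), the plasma glutathione peroxidase made in kidney.

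Against this spread between tissues, the diets moved the members little. In 120 tests, which are 10 members in 12 comparisons of HCD with Control or of a treatment with HCD, no member was DE and 2 tests passed at the adjusted p, both of Gclc, while 13 had an unadjusted p under 0.05. Of all 22080 genes, 883 (HCD+Gl-1 against HCD in kidney) to 3663 (the same comparison in liver) had such an unadjusted p. In liver, over all genes, 0.245% were DE and 1.34% passed with HCD against Control, 0.163% and 2.48% with HCD+Gl-1 against HCD, 0.303% and 1.7% with HCD+Gl-2, and 0.258% and 1.1% with HCD+Sim. In kidney these shares were 0.0408% and 0.131%, 0.131% and 0.267%, 0.335% and 0.996%, and 0.14% and 0.222%. In brain they were 0.0317% and 0.0543%, 0.00906% and 0.0181%, 0.0226% and 0.0362%, and 0% and 0.0181%.

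All 120 of the 95% intervals lay within the fold threshold of 0.7, and the widest bound was 0.67, that of Gclc in kidney with Gl-1. In 115 of the 120 tests the absolute log2 fold change was under 0.25. Within a tissue the group means of the median member spanned 0.19 in liver, 0.11 in kidney and 0.16 in brain, beside 0.21, 0.16 and 0.17 for the median gene.

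**Figure D3:**
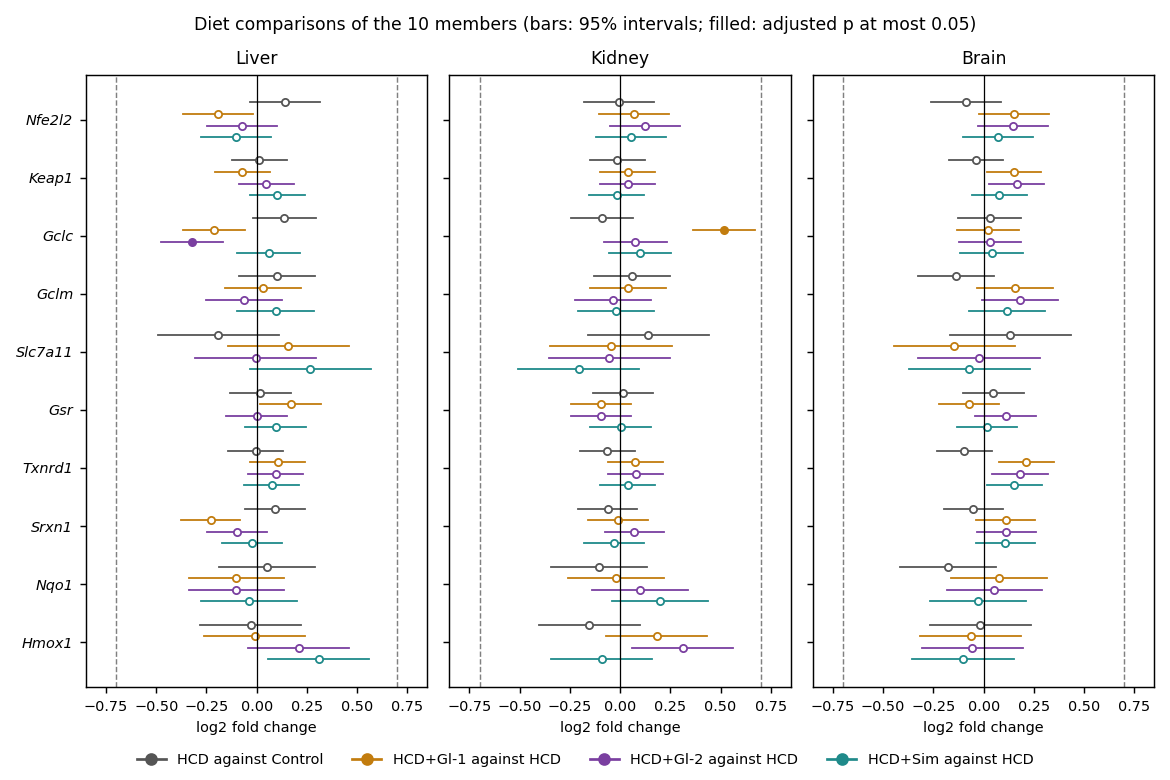
Log2 fold change (horizontal axes) of each member in the 12 diet comparisons, by tissue, with 95% intervals as bars, filled points where the adjusted p was at most 0.05 and dashed lines at the fold threshold of 0.7. The filled points are Gclc with Gl-1 in kidney (0.52) and Gclc with Gl-2 in liver (-0.32).

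Gclc, the catalytic subunit of the ligase, rose in kidney with the Gl-1 extract. Its HCD+Gl-1 kidney arrays read 11.26, 11.32 and 11.23, against 10.79, 10.88 and 10.58 on HCD. The HCD+Gl-1 arrays lay above all 12 other kidney arrays, of which the highest was 10.93. The log2 fold change was 0.52 (SE 0.08, 95% interval 0.36 to 0.67, adjusted p = 5e-05), a 1.43-fold rise, and by adjusted p Gclc ranked 26 among the 59 genes that passed there. With pools A and B only it was 0.45 (adjusted p = 0.00537), and with a fit on the compared groups only the call was lost (adjusted p = 0.0525).

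The modifier subunit did not pass there. Gclm read 11.39, 11.43 and 11.45 in the HCD+Gl-1 kidney and 11.36, 11.46 and 11.33 in the HCD kidney, a log2 fold change of 0.04 within a 95% interval of -0.15 to 0.23. The other 8 members had fold changes between -0.10 and 0.18 in this comparison, none of which passed the test. The mean of the 10 kidney genes was 11.79 to 11.82 on the HCD+Gl-1 arrays and 11.70 to 11.75 on the HCD arrays. In the other kidney groups it averaged 11.78 (Control), 11.81 (HCD+Gl-2) and 11.80 (HCD+Sim), with Gclc at 10.84, 10.83 and 10.85. The part of this mean in the result was not tested. The immediate early and heat shock list read 7.44 to 7.47 on the HCD+Gl-1 and 7.39 to 7.42 on the HCD kidney arrays.

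**Figure D4:**
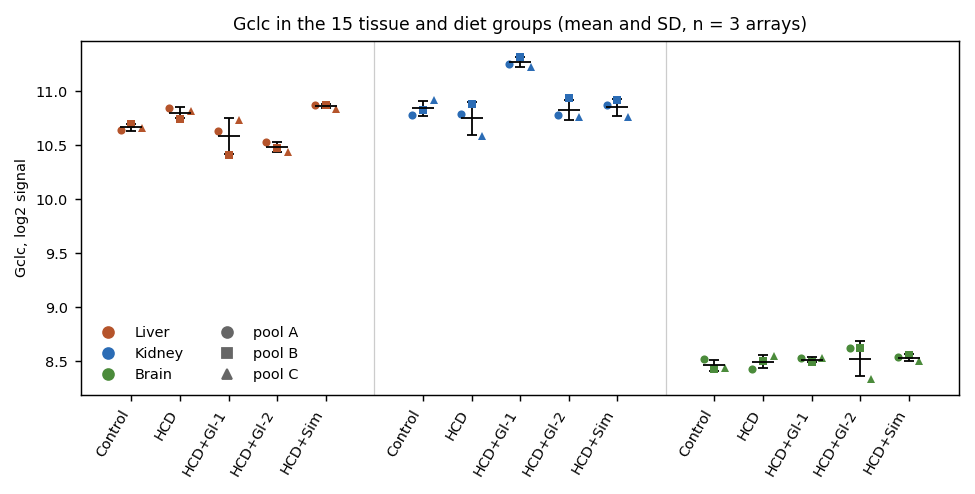
Log2 signal of Gclc on each array (symbols are pools, colours are tissues) with mean and SD (n = 3 arrays) for the 15 groups. The HCD+Gl-1 kidney arrays, at 11.23 to 11.32, lie above every other array, and the HCD+Gl-2 liver arrays, at 10.44 to 10.53, lie below the HCD liver arrays.

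In liver Gclc went the other way. The HCD+Gl-2 liver arrays read 10.53, 10.47 and 10.44, against 10.85, 10.75 and 10.81 on HCD, and no array of one group reached the other. The log2 fold change was -0.32 (SE 0.08, adjusted p = 0.0164), which leaves the signal at 0.80 of that on HCD. This call was lost with a fit on the liver arrays only (adjusted p = 0.181) or on the compared groups only (adjusted p = 0.244), with pools A and B only (-0.30, adjusted p = 0.0653), and without array A of HCD (-0.30, adjusted p = 0.0911), array C of HCD (adjusted p = 0.0601) or array C of HCD+Gl-2 (adjusted p = 0.0881). Arrays A and C of HCD+Gl-2 were those high in immediate early genes, and with both left out the fold change was -0.33, which rests on array B alone. The part of the immediate early genes in the result was not tested.

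The Gl-1 livers also read below HCD, at 10.63, 10.41 and 10.73, but the fold change of -0.21 did not pass (adjusted p = 0.125). Simvastatin (10.88, 10.87 and 10.84) left hepatic Gclc at the HCD level, with a fold change of 0.06 (95% interval -0.10 to 0.21). In brain the 12 arrays of the high-cholesterol diets read 8.33 to 8.62, and the 4 fold changes of Gclc were between 0.02 and 0.04.

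The response of Gclc to Gl-1 differed between tissues by a test of the difference itself. Gl-1 against HCD was -0.21 in liver and 0.52 in kidney, a difference of -0.73 (SE 0.11, adjusted p = 0.000119). This was the only one of 80 such tests that passed, over 10 members and 8 contrasts of the liver's response with that of kidney or brain. Over all genes 0.389% passed in this contrast. For Liver minus Kidney 0.263%, 0.625% and 0.299% passed with HCD, Gl-2 and simvastatin, and for Liver minus Brain 0.326%, 0.362%, 0.598% and 0.0996% passed with HCD, Gl-1, Gl-2 and simvastatin. The Liver minus Kidney difference for Gl-2 was -0.40 (adjusted p = 0.0866), which did not pass.

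The extracts, made from the same mushroom with and without acetylsalicylic acid in its substrate, were compared at the same share of the diet and the same time. In kidney Gclc fell from Gl-1 to Gl-2 (10.78, 10.93 and 10.77 on Gl-2), a difference of -0.44 (SE 0.08, 95% interval -0.60 to -0.29, adjusted p = 0.000778). The 9 other members differed between the extracts by at most 0.13 in kidney, none passing. In liver no member passed, with differences between -0.17 (Gsr) and 0.22 (Hmox1), and in brain none passed, with differences between -0.03 and 0.18. Over all genes 0.172% were DE and 3.94% passed between the extracts in liver, 0.181% and 0.394% in kidney, and 0.00906% and 0.0136% in brain.

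The values of the other members are given as measured, since none of their diet tests passed. Nfe2l2 in liver read 9.80, 9.95 and 9.83 on HCD, all above the Control arrays (9.74, 9.70 and 9.72), with a fold change of 0.14 (adjusted p = 0.634). On Gl-1 it read 9.74, 9.47 and 9.78, all below HCD, with a fold change of -0.19 (adjusted p = 0.241). Over the 12 comparisons Nfe2l2 ranged from -0.19 to 0.15 and Keap1 from -0.07 to 0.16.

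Srxn1 in the Gl-1 liver had the lowest adjusted p after Gclc, 0.083. Its arrays read 8.37, 8.25 and 8.24, against 8.43, 8.42 and 8.69 on HCD, a fold change of -0.23 (95% interval -0.38 to -0.08). After a second quantile normalization within the tissue it was -0.25 and passed (adjusted p = 0.0479), while it was -0.14 (adjusted p = 0.434) without array C of HCD and -0.12 (adjusted p = 0.631) with pools A and B only. Gsr in the same comparison had array C at 10.03, with arrays A and B at 9.71 and 9.59 beside 9.59 to 9.62 on HCD (fold change 0.17, adjusted p = 0.232), and it was 0.26 (adjusted p = 0.0224) without array B of HCD+Gl-1 and 0.04 (adjusted p = 0.893) without array C. Pool C, by the methods a mix of A and B, did not lie between them here. Over all genes and diet groups it lay between them in 29.0% of cases in liver, 30.3% in kidney and 25.7% in brain. For the members these shares were 32%, 22% and 18%.

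Hmox1, which heme, oxidants and heat also induce, had the largest fold changes of the members other than Gclc. In kidney it read 8.45, 8.19 and 8.38 on Gl-2 and 8.05, 7.95 and 8.10 on HCD, so the arrays did not overlap, with a fold change of 0.31 (95% interval 0.06 to 0.56, adjusted p = 0.363). In liver on simvastatin it read 8.64, 8.50 and 8.55 against 8.22, 8.26 and 8.29 on HCD (fold change 0.31, adjusted p = 0.284), and array C, whose pancreas genes were at the level of the other liver arrays, lay between arrays A and B. In this comparison 8 of 9 macrophage genes read higher, with a median of 0.24 beside 0.03 for all genes, and Marco rose (0.54, adjusted p = 0.00888). Marco had fallen with HCD against Control (-0.64, adjusted p = 0.000837). The mean of the 9 was 8.44 to 8.72 on the simvastatin arrays and 8.34 to 8.40 on the HCD arrays. By group it was 8.65 on Control, 8.36 on HCD, 8.49 on Gl-1, 8.52 on Gl-2 and 8.61 on simvastatin. Hmox1 was at 8.29, 8.26, 8.25, 8.46 and 8.56 in these liver groups. The part of the macrophage genes in the result was not tested. Neither fold change of Hmox1 passed after adjustment over 22080 genes.

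Txnrd1 in brain read 7.93, 7.92 and 7.95 on HCD, and all 3 treatments read above it, with fold changes of 0.21 on Gl-1 (adjusted p = 0.533), 0.18 on Gl-2 (adjusted p = 0.549) and 0.15 on simvastatin (adjusted p = 0.81). These comparisons share the HCD arrays, so they are not separate evidence. Slc7a11 ranged from -0.21 to 0.27 and Nqo1 from -0.18 to 0.20 over the 12 comparisons, and no test of either had an unadjusted p under 0.05. Gclm ranged from -0.14 to 0.18. In brain its Control arrays read 9.07, 9.26 and 8.62, and without array C, the low one, HCD against Control was -0.32 (adjusted p = 0.0169) in place of -0.14 (adjusted p = 0.905), and without array B, the high one, it was 0.0027 (adjusted p = 1).

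Across the 15 group means the members were loosely related. After each tissue's mean was subtracted, the 45 pairs of members had Pearson coefficients from -0.48 (Nqo1 with Slc7a11) to 0.71 (Nfe2l2 with Srxn1), with a median of 0.20. The coefficient of Gclc with Gclm was 0.46 and that of Gclc with Nfe2l2 was 0.26. The points share arrays, pools and normalization. Among 1350 genes whose centred group means span at least 0.5, those most like Gclc were Lpl (r = 0.70 over 15 group means), lipoprotein lipase, and Lynx1 (r = 0.64), and neither passed in kidney with Gl-1 (adjusted p = 0.115 and 0.923) or in liver with Gl-2 (0.31 and 0.384) against HCD.

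Among 13 regulators around NRF2, which include the small MAF proteins and the repressors of the BACH family, none was DE in a diet comparison. Bach2 (0.42, adjusted p = 0.0137) and Mafg (0.32, adjusted p = 0.048) rose with HCD in liver. Nfe2l1, the related factor, rose with Gl-1 in liver (0.28, adjusted p = 0.0409). In kidney Mafk (0.34, adjusted p = 0.0241) and Maff (0.40, adjusted p = 0.0321) rose with Gl-2, a comparison in which no member passed. The median over the 13 regulators was 0.02 in this comparison, beside 0.01 for all genes.

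Among the 29 further NRF2 targets the diet calls were in liver. With HCD against Control 6 rose and 1 fell, with Gl-1 against HCD none rose and 7 fell, with Gl-2 none rose and 5 fell, and with simvastatin 1 rose and 3 fell, where 1.34%, 2.48%, 1.7% and 1.1% of all genes passed, and the difference from all genes was not tested. Their median log2 fold changes were 0.19, -0.12, -0.13 and 0.01, beside -0.01, -0.01, 0.01 and 0.03 for all genes. In kidney and brain none of the 29 passed in any of the 8 diet comparisons. The 3 treatment comparisons share the HCD arrays, so a high or low HCD array enters all of them.

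Abcc3, a basolateral export pump for bile acids and conjugates, rose with HCD in liver, from 9.74, 9.69 and 9.67 on Control to 10.87, 10.70 and 10.75, a fold change of 1.07 (adjusted p = 4.73e-12). It was lower on Gl-1 than on HCD (-0.36, adjusted p = 0.00778), with arrays at 10.51, 10.40 and 10.34. Among the glutathione transferases of the mu class, Gstm3 rose with HCD (0.49, adjusted p = 0.000264). It fell with Gl-1 (-0.58, adjusted p = 2.71e-05) and with Gl-2 (-0.51, adjusted p = 0.000161). Gstm4 rose by 0.52 with HCD (adjusted p = 0.00481). It fell by 0.52 with Gl-1 (adjusted p = 0.00574) and by 0.54 with Gl-2 (adjusted p = 0.00307). Gstm2 fell with Gl-1 (-0.60, adjusted p = 0.00594) and did not pass with HCD or Gl-2. With arrays A and C of HCD+Gl-2 left out, Gstm3 was -0.52 (adjusted p = 0.0268) and Gstm4 was -0.47 (adjusted p = 0.149).

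Some of the targets that fell in a liver comparison, Me1, Pgd and G6pdx, make NADPH, the reductant of glutathione and thioredoxin reductase. They are also known as genes of fat synthesis. Me1, malic enzyme, read 11.36, 11.66 and 11.11 on HCD, 10.32, 10.57 and 9.97 on Gl-2 and 10.58, 10.85 and 10.36 on simvastatin, and was DE in both (-1.09, adjusted p = 3.4e-06, and -0.78, adjusted p = 0.000685). On Gl-1 its fold change was -0.41 (adjusted p = 0.083). Pgd and Tkt, of the pentose phosphate pathway, fell with all 3 treatments, Pgd by 0.53, 0.55 and 0.56 and Tkt by 0.39, 0.37 and 0.34. G6pdx, the entry enzyme of that pathway, was lower on HCD than on Control (-0.90, adjusted p = 0.00338), and its fold changes against HCD did not pass. Taldo1, of the same pathway, did not pass in any liver comparison, with fold changes between -0.10 and 0.04.

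Some of these liver values depend on arrays that stand apart. With arrays A and C of HCD+Gl-2 left out, Me1 was -0.80 (adjusted p = 0.0206), while Pgd went to -0.17 (adjusted p = 0.641) and Tkt to -0.11 (adjusted p = 0.703). With arrays A and B of HCD+Sim left out, Me1 was -1.02 (adjusted p = 0.00153), Pgd -0.84 (adjusted p = 0.00187) and Tkt -0.48 (adjusted p = 0.03). In liver pool B was the highest and pool C the lowest array of the group in 4 of 5 groups for Me1, G6pdx and Tkt, although by the methods pool C is a mix of the others. Among the members this order was found in 3 groups for Hmox1, in 1 each for Keap1 and Nqo1 and in none for the 7 others.

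**Figure D5:**
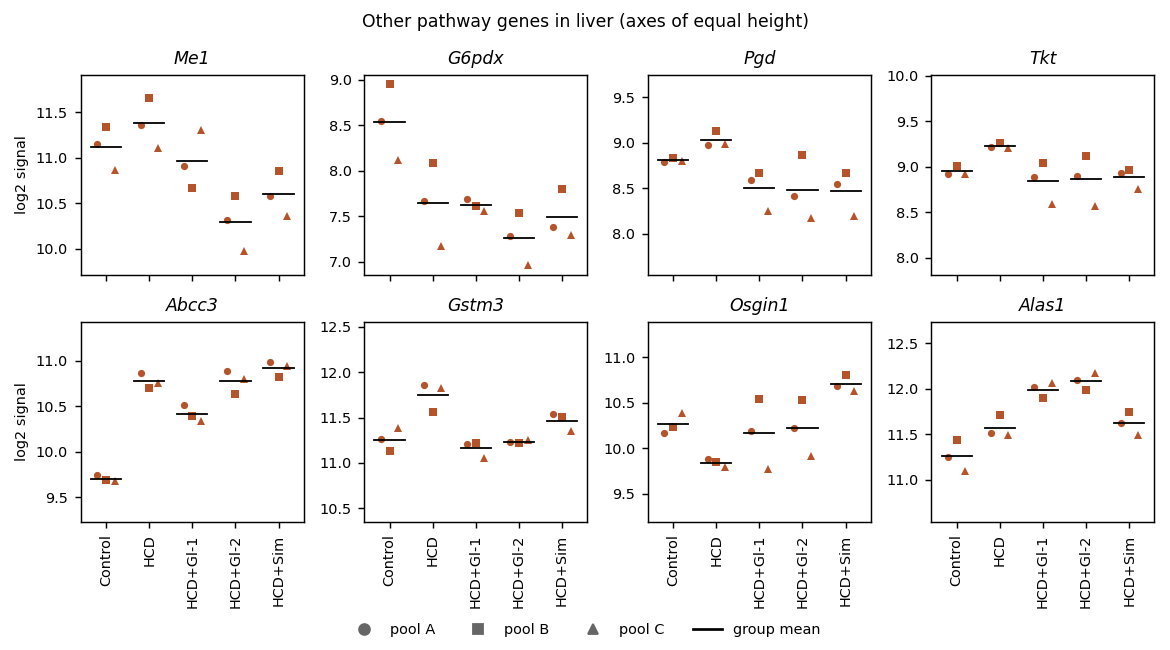
Log2 signal in liver of 8 genes of the pathway outside the 10 members (vertical axes of equal height) by diet; symbols are pools and black lines are group means of 3 arrays. The group means of Abcc3 and Gstm3 are higher on HCD than on Control, and those of Me1, Pgd and Tkt are lower on the treatments than on HCD, with Me1 on Gl-1 overlapping.

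Osgin1, an inhibitor of growth that responds to oxidative stress, rose with simvastatin in liver from 9.88, 9.85 and 9.79 to 10.68, 10.81 and 10.63 (0.87, adjusted p = 0.000171), and with arrays A and B left out the value was 0.79 (adjusted p = 0.0204). Of 21 genes of the glutathione cycle none was DE in a diet comparison, and those that passed were in liver. Chac1, which degrades glutathione, rose with HCD (0.38) and Oplah, 5-oxoprolinase, fell with HCD (-0.37) and rose with simvastatin (0.39), a call lost with arrays A and B left out (0.39, adjusted p = 0.0979). Slc3a2, the heavy chain that pairs with the product of Slc7a11, fell with Gl-1 (-0.26, adjusted p = 0.0176), as did Slc1a4 (-0.41, adjusted p = 0.0338), a transporter of neutral amino acids. In the thioredoxin and peroxide list of 22 genes, Txnrd2, the mitochondrial thioredoxin reductase, fell with Gl-1 (-0.25) and Txnip, an inhibitor of thioredoxin, rose with Gl-2 (0.62, adjusted p = 0.0196), which went to 0.03 (adjusted p = 0.968) with arrays A and C left out.

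In the list of 17 genes of heme handling, the DE gene was Alas1. Alas1, the first enzyme of heme synthesis, rose in liver with HCD against Control (0.31, adjusted p = 0.0474). Against HCD it rose with Gl-1 (0.42, adjusted p = 0.00327) and Gl-2 (0.51, adjusted p = 0.000233) in liver and with Gl-2 in kidney (0.49, adjusted p = 0.000351). With arrays A and C of HCD+Gl-2 left out, its rise in liver was 0.41 (adjusted p = 0.0984). In kidney the extracts differed in it. The Gl-2 arrays read 11.03, 10.89 and 11.10 and the Gl-1 arrays 10.30, 10.31 and 10.19, a difference of 0.74 (adjusted p = 1.68e-07). Blvrb, biliverdin reductase B, fell with Gl-1 in liver (-0.30, adjusted p = 0.0164), and Hp, haptoglobin, rose there (0.39, adjusted p = 0.0409), while Hbb-bs, a hemoglobin gene, also fell there (-0.65, adjusted p = 0.000479), and its part in these results was not tested.

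Immediate early and heat shock genes rose with Gl-2 in kidney and liver, and in brain none of the 17 passed (median -0.002 beside 0.0185 for all genes). In the HCD+Gl-2 kidney 14 of the 17 rose, all of them DE, with a median of 1.37 beside 0.01 for all genes and 0.07 for the 10 members. Egr1, an early transcription factor, read 10.73, 10.44 and 10.80 there against 6.92, 6.70 and 6.45 on HCD, and Nr4a1, a nuclear receptor of the same class of early genes, rose by 3.47 (adjusted p = 2.36e-11). In the HCD+Gl-2 liver 13 rose, 12 of them DE, on arrays A and C, where the mean of the list was 8.68 and 9.08, and not on array B, where it was 7.42 beside 7.33 to 7.36 on HCD. Hmox1 in that liver group read 8.46, 8.57 and 8.36 on arrays A, B and C, highest on array B.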

How the data were processed

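RNA pools of 3 tissues were hybridized to Affymetrix Mouse Gene ST v1.0 arrays. The deposited table holds log2 values, which the authors made by RMA background correction, quantile normalization and ComBat, keeping 1 probe set per gene by interquartile range. ComBat's batches are not given in the sources used here, and such an adjustment can shrink or add differences. Array medians were 6.76 to 6.92.

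Groups came from the sample titles. Means of the 15 groups were fitted jointly on 45 arrays with limma 3.58.1 (R 4.3.3), with Benjamini-Hochberg adjustment over 22080 genes within each comparison, and this gave every p-value and interval. The code was tested on simulated data. The thresholds follow the study's methods. For 3 arrays against 3 an exact permutation p cannot go below 0.1.

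The members and lists were chosen with earlier results of these data known. Named are the 10 members, up to 3 DE genes per other list and comparison with the largest change, and the 2 genes most like a member that passed. Other genes were named after their values were seen, and this holds for every named gene outside the members that passed without being DE. Some genes of the lists that passed without being DE are not named. Of 32 further targets, Gsta1, Gsta2 and Ugt1a6a are not analysed here. Alternatives tried were other fits, filters, normalizations, pools A and B only, and each array left out. Plots used matplotlib 3.10.9.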

Additional observations from a re-analysis of the deposited data

Results flagged for a closer look

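Gclc met the rule for an effect that differs between tissues. The response to Gl-1 (HCD+Gl-1 against HCD) was -0.21 on the log2 scale in liver and 0.52 in kidney, a Liver minus Kidney difference of -0.73 (limma contrast, adjusted p = 0.000119). It kept its direction and passed the test under the 17 alternatives run, with values from -0.80 to -0.64. Groups of 3 arrays are too small for a test of single outlying arrays.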

How the results depend on the processing

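The pool letter did not meet the criterion for pairing, a correlation over 0.1 in every pair. The deviations of same-lettered arrays correlated between diets over 0.1 in 12 of 30 pairs in liver, 3 of 30 in kidney and 7 of 30 in brain, with medians of 0.073, -0.0012 and -0.027. In liver some genes did share an order of the letters, as given above for Me1, G6pdx and Tkt. With the pool letter as a replicate block, Gclc had adjusted p = 6.66e-05 in kidney with Gl-1 and 0.0143 in liver with Gl-2, it passed also in Liver against Kidney (-0.18, adjusted p = 0.0488), and no count of DE members changed.

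The counts of DE members were the same as reported under the alternatives run, except without a fold threshold, where they rose from 0 to 1 in Liver HCD+Gl-2 against HCD, Kidney HCD+Gl-1 against HCD and Kidney HCD+Gl-2 against HCD+Gl-1, from 2 to 4 in Liver against Kidney and from 7 to 10 in Liver against Brain. The count of members' responses that differed between tissues went from 1 to 2 with pools A and B only and with trend and robust moderation, and lay between 1 and 2 when each array was left out in turn, with 2 without array B of the HCD+Gl-1 liver (Gsr added), array B of the HCD kidney (Gclc with Gl-2 added), array C of the Control brain (Gclm added) or array C of the HCD+Gl-2 brain (Gclc with Gl-2 added). The added call was Gclm (HCD, Liver minus Brain, 0.41, adjusted p = 0.0484) with pools A and B only, and with trend and robust moderation it was Gclc again (Gl-2, -0.40, adjusted p = 0.046). Of 26 differences of single members called as reported, 23 stayed called under each alternative, and the others were Gclc in the Gl-2 liver, Gclc in the Gl-1 kidney (fit on the compared groups only) and Nqo1 in Liver against Brain. Another 11 were called only under an alternative. No called difference changed sign, and Gclm in Brain HCD against Control, not called as reported (-0.14), was 0.0027 without array B of Control. Leaving out arrays that stand apart was chosen after seeing the data. The few arrays per group and the mixed pool C limit the precision.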
